A study of Homo sapiens with 6 samples.

Results

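The tripartite motif (TRIM), guanylate-binding protein (GBP), apolipoprotein L (APOL), interferon-inducible (IFI) and poly(ADP-ribose) polymerase (PARP) families were represented by 32 genes among the 6018 genes of the authors' deposited table. Members were the rows whose gene symbol is a family name followed directly by a digit, without pseudogenes and without PARP1. They comprised 12 TRIM, 6 GBP, 4 APOL, 7 IFI and 3 PARP genes.

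The series compared the established prostate cancer cell line C4-2B, a castration-resistant descendant of LNCaP, with a subline selected for growth in abiraterone, an inhibitor of the androgen-synthesising enzyme CYP17A1. RNA was sequenced from 3 libraries of the parental line, passaged in 1% DMSO and given as passage 0, and 3 libraries of the subline, exposed to stepwise 1 to 20 µM abiraterone for at least 6 months, kept in 5 µM and given as passage 15 to 18. Both lines grew in medium with 10% serum, and 10 µM abiraterone before RNA extraction is stated in a wording that does not settle whether both lines received it. Passage number and cell line cannot be told apart, and the labels do not say that the libraries of a line came from separate cultures. The listed p-values therefore reflect how much the sequenced libraries varied, and that variation may be technical in origin. The table holds no value per library, so the variation enters only through the standard errors that the authors list.

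The table comes from DESeq2 and sets 2 conditions, C and V, against each other. Its header calls C control and V vehicle, and gives positive log2 fold changes to genes higher in C. A V stands in the titles of parental libraries alone, which would leave C for the selected subline, while the series text calls the parental cells the control. Directions are therefore given by these 2 letters and are not translated into cell lines. Genes counted as called if the adjusted p that DESeq2 listed for them (Wald test, Benjamini-Hochberg) was under 0.05. Every listed gene has p under 0.05 and a log2 fold change of 1.20 or more in size, so being listed already implies a difference, and a gene that is not listed may have missed either limit.

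Interferons act through cell-surface receptors, JAK kinases and STAT and IRF transcription factors, which bind short elements near the starts of their target genes. The interferon-stimulated response element (ISRE) is bound by complexes that contain IRF proteins, and the gamma-activated site (GAS) by STAT dimers. GBP genes, most IFI genes, several APOL genes, the macrodomain PARPs and a minority of TRIM genes are known targets of this pathway, whereas other TRIM and PARP genes serve muscle, the germ line or DNA repair.

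Of the 32 members, 31 were called, where 89.4% of all listed genes were called. Of those 31, 27 were higher in V and 4 were higher in C. Over all called genes 48.5% were higher in V, and over called protein-coding genes, the type to which all 32 members belong, 65.9% were. The median log2 fold change of the called members was -4.39, compared with -1.55 over called protein-coding genes. These figures describe the selected rows and carry no test, and in bulk RNA fewer cells of a type and less RNA per cell cannot be told apart.

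The families differed in how much of each was listed and in how far the listed members lay from 0. The table listed 6 of 7 annotated protein-coding GBP genes, 7 of 9 IFI genes, 4 of 6 APOL genes, 3 of 12 PARP genes and 12 of 74 TRIM genes, in GENCODE release 29 (GRCh38) and without read-through genes. That is 29.6% of the 108 family genes, where 14.8% of all 19951 annotated protein-coding genes were listed. By family the share ran from 16.2% for TRIM, close to that of all genes, to 85.7% for GBP. The median log2 fold change of called members was -7.31 for GBP, -5.50 for APOL, -3.74 for IFI, -2.56 for PARP and -1.50 for TRIM. All 20 called GBP, APOL, IFI and PARP genes were higher in V, and all 4 called genes higher in C were TRIM genes. Of the 27 called members higher in V, 16 had a log2 fold change of -4 or below (59.3%), as did 26.9% of the 1802 called protein-coding genes higher in V.

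**Figure D1:**
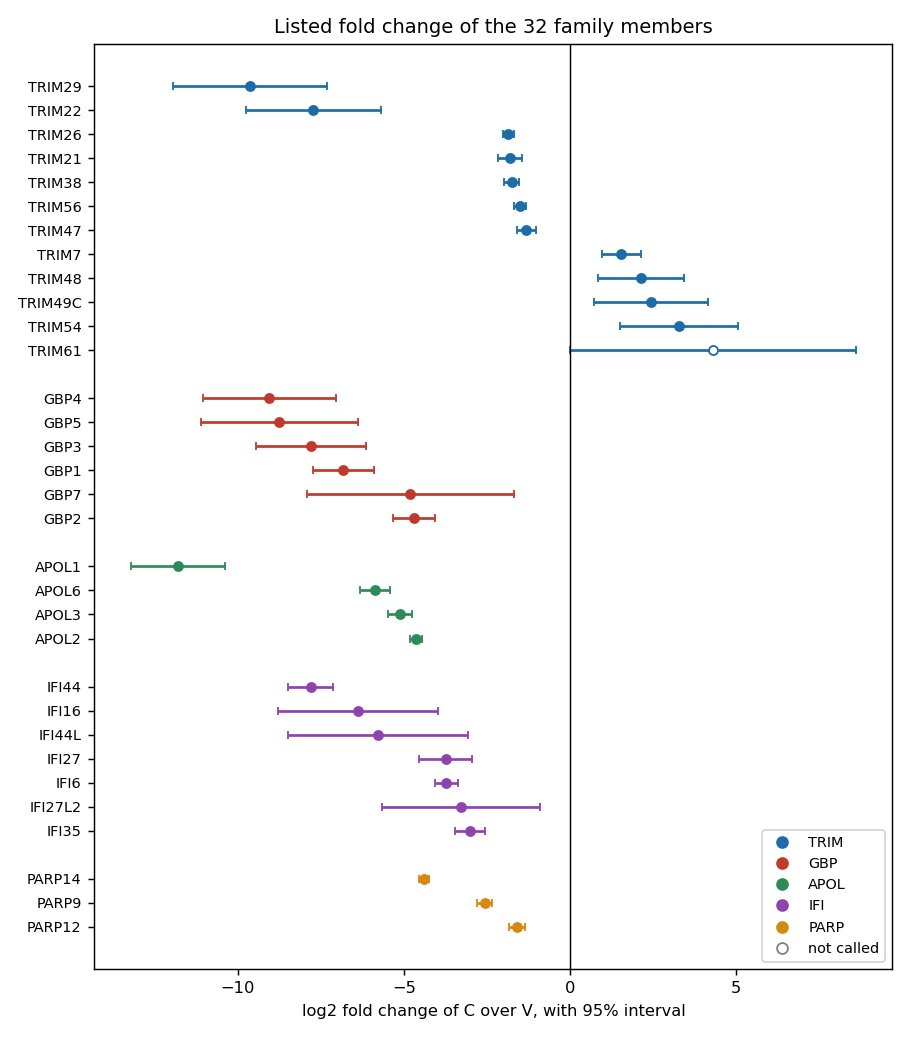
Log2 fold change of C over V for each of the 32 members as listed in the authors' deposited table, coloured by family. Points are the estimates, bars the 95% intervals made from the listed standard errors, and the open point is TRIM61, which was not called. All GBP, APOL, IFI and PARP genes lie left of 0, and TRIM genes lie on both sides.

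The letters around the gene starts were compared because members that move together may share an element. RefSeq start windows (GRCh38.p14, 250 bases before and 50 bases after the start) were found for 24 of the 32 members. Those without a window were APOL1, APOL2, APOL3, APOL6, GBP2, GBP5, TRIM22 and TRIM29, so no APOL gene was searched. An ISRE core, searched on both strands as GAAA repeated after a gap of any 2 bases, was present in 12 of these 24 members (50%) and in 4.38% of the 27305 genes with a window. All 12 were among the 19 matched members called higher in V, and the 5 matched TRIM genes listed higher in C had none. A count of 0 among 5 genes is near the 4.38% of all genes, so it says little about direction. The GAS palindrome TTCNNNGAA, which reads the same on both strands, was present in 6 of the 24 members (25%), against 9.38% of all genes, and 2 of those 6, TRIM7 and TRIM49C, were higher in C. A match is a run of letters and does not show that a factor was bound.

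The ISRE core matches numbered 18, 9 on each strand of the gene, and in 7 of the 12 genes a match began within 50 bases of the start. The match nearest the start of each gene is shown with 10 bases on either side, read in the direction of the motif, with the core in capitals and the coordinates of the core in GRCh38.p14.
TRIM26 (chr6:30213585-30213594, plus strand): caggggcagcGAAATGGAAActgaaatcag
TRIM21 (chr11:4393676-4393685, minus strand): cttctgagcgGAAACTGAAAgtgaaatagg
GBP4 (chr1:89198937-89198946, plus strand): tgtgagaaccGAAATTGAAAggacatgcac
GBP3 (chr1:89022855-89022864, plus strand): agagcctaatGAAACTGAAAgtacttcttt
GBP1 (chr1:89065326-89065335, plus strand): agagtaatatGAAACTGAAAgtacttcgtt
IFI44 (chr1:78649771-78649780, minus strand): tcagagaaagGAAACTGAAActcagtgtgc
IFI44L (chr1:78620375-78620384, plus strand): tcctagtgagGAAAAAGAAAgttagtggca
IFI27 (chr14:94110641-94110650, plus strand): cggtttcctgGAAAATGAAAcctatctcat
IFI6 (chr1:27672276-27672285, minus strand): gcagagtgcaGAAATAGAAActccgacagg
PARP14 (chr3:122680810-122680819, plus strand): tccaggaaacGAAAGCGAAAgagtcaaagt
PARP9 (chr3:122564332-122564341, plus strand): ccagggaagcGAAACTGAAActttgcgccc
PARP12 (chr7:140062952-140062961, plus strand): ggcgggaaacGAAACCGAAAgcggccccgg

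The core GAAACTGAAA was the commonest spelling and occurred in GBP1, GBP3, IFI44, PARP9, TRIM21 and TRIM26. IFI6 held 3 cores, and TRIM26, TRIM21, IFI27 and IFI44L held 2 each. The 2 cores of TRIM26 overlapped each other, as did the 2 of TRIM21, and each core was counted as a match. The 2 cores of IFI44L stood in identical windows of 30 bases. The ISRE and GAS matches of IFI27 overlapped by 3 bases, and those of GBP3 and PARP14 did not overlap.

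The whole start window of 300 bases is given for the member with the smallest p among those with an ISRE core in each of 4 families, on the strand of the gene, with ISRE and GAS matches in capitals. These are PARP14 (chr3:122680589-122680888, plus strand), IFI44 (chr1:78649539-78649838, plus strand), GBP1 (chr1:89065159-89065458, minus strand) and TRIM26 (chr6:30213357-30213656, minus strand).
PARP14: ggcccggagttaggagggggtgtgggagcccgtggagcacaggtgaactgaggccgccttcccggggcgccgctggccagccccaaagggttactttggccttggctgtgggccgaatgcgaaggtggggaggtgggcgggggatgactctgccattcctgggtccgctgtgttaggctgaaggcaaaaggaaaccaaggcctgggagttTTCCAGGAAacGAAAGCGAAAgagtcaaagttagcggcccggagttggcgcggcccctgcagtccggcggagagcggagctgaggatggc
IFI44: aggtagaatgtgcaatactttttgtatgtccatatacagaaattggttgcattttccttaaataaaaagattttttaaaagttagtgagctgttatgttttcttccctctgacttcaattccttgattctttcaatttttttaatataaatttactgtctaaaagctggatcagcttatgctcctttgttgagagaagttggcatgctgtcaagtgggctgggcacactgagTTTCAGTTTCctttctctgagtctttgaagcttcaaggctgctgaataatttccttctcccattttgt
GBP1: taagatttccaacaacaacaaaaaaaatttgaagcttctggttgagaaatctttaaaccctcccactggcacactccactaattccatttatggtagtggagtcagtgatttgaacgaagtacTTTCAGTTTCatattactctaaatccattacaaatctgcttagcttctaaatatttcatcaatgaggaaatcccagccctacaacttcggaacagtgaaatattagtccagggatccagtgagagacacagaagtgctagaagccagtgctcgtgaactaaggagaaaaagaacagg
TRIM26: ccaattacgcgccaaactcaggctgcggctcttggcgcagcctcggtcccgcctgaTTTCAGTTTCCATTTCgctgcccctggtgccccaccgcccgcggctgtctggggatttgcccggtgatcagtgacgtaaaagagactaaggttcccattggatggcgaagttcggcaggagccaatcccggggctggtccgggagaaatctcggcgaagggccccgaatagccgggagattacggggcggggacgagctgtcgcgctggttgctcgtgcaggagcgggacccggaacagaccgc

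**Figure D2:**
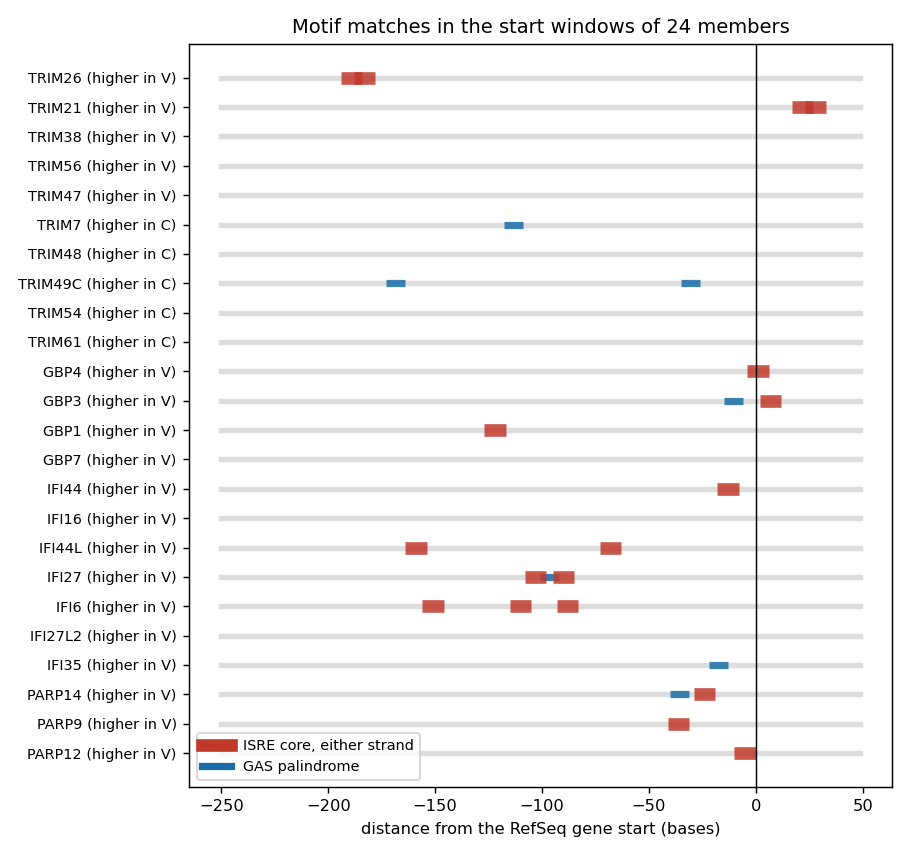
Position of ISRE core and GAS palindrome matches in the start windows of 24 members, with distance from the RefSeq gene start in bases on the x axis and 1 line per gene. Red bars are ISRE cores on either strand and blue bars are GAS palindromes. The 5 members listed higher in C, all TRIM genes, show no red bar, and 4.38% of all genes with a window held an ISRE core.

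GBP genes encode large GTPases of the dynamin superfamily that assemble on pathogen membranes and vacuoles. All 6 listed genes were higher in V, and 4 of them, GBP3, GBP4, GBP5 and GBP7, had a level under 1 normalised count in C. Each side's level was worked out as the value that satisfies both the listed mean and the listed fold change if C and V hold equally many libraries, and has no error of its own. GBP1, which coats bacteria and binds their lipopolysaccharide, had a derived level of 2.95 normalised counts in C and 334 in V. Its listed log2 fold change in the authors' deposited table was -6.82 ± 0.47 (standard error, as for every value given with ± here; adjusted p = 5.29e-46), a 113-fold difference with a 95% interval of 59.7 to 215. GBP2, another member of the coat, stood at 7.77 in C and 202 in V, with a listed log2 fold change of -4.70 ± 0.32 in the authors' deposited table (adjusted p = 4.98e-47). The 95% interval of GBP2 (-5.33 to -4.07) did not overlap that of GBP1 (-7.75 to -5.90), and the estimate of GBP1 was the farther from 0. Estimates of different genes come from the same libraries, and their differences were not tested.

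GBP4 reached a derived level of 313 in V and GBP3 reached 199, close to GBP1 and GBP2. In C both were under 1, at 0.590 and 0.896. In the authors' deposited table GBP4 was listed at -9.05 ± 1.03 (adjusted p = 1.5e-17) and GBP3 at -7.79 ± 0.85 (adjusted p = 4.56e-19). GBP5, which promotes inflammasome assembly, was listed at -8.75 ± 1.20 (adjusted p = 3.11e-12) and derived at 0.166 in C and 71.3 in V. GBP7 was the lowest of the family, at a listed mean of 2.28 and -4.80 ± 1.60 (adjusted p = 0.00745) in the authors' deposited table, and its annotated exons share 621 bases with those of GBP2 on the same strand. With a C level under 1 the size of a fold change is poorly determined, and the 95% intervals of GBP3, GBP4, GBP5 and GBP7 all overlapped.

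The GBP genes form a run of 380 kb on chromosome 1 (chr1:89006666-89386461 in GENCODE release 29) that holds no other protein-coding gene. In order along the chromosome these are GBP3, GBP1, GBP2, GBP7, GBP4, GBP5 and GBP6, and the first 6 were called higher in V. GBP6, at the end of the run and on the opposite strand, was not listed in the table used here.

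APOL genes encode apolipoprotein L proteins, of which APOL1 is secreted into the blood and lyses trypanosomes while the others stay in the cell. The 4 listed genes were all higher in V. Their summed derived level was 9238 normalised counts in V against 176 in C, the largest V sum of called members among the 5 families. Genes that were not listed have no level and are missing from these sums, which take no account of gene length. APOL1 was derived at 1.18 normalised counts in C and 4240 in V, the highest derived V level of any member. Its listed log2 fold change in the authors' deposited table was -11.81 ± 0.72 (adjusted p = 3.17e-58), and at 3601-fold (95% interval 1347 to 9627) it was the member farthest from 0. A C level this close to 1 makes the exact fold uncertain.

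APOL2 was the best determined APOL gene. It was derived at 138 normalised counts in C and 3396 in V, and was listed at -4.62 ± 0.09 with a p and an adjusted p of 0 in the authors' deposited table, a 24.6-fold difference (95% interval 21.7 to 27.9). By the size of its Wald statistic it ranked 5 among all 6018 listed genes. APOL3, whose protein can dissolve bacterial membranes once GBP proteins have opened them, was at 22.5 in C and 782 in V (-5.12 ± 0.18, adjusted p = 1.07e-167 in the authors' deposited table). APOL6, a protein tied to cell death, was at 14.0 in C and 819 in V (-5.87 ± 0.23, adjusted p = 6.04e-147 in the authors' deposited table). The 95% interval of APOL1 (-13.23 to -10.40) overlapped none of the other 3, which together spanned -6.32 to -4.44.

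The 6 APOL genes lie within 619 kb on chromosome 22 (chr22:35648395-36267530), where the single other protein-coding gene, RBFOX2, a splicing regulator, was not listed in the table used here. APOL4 and APOL5 were also not listed, although APOL4 lies between the called genes APOL3 and APOL2. A place among called family genes thus did not go with being listed in every case.

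**Figure D3:**
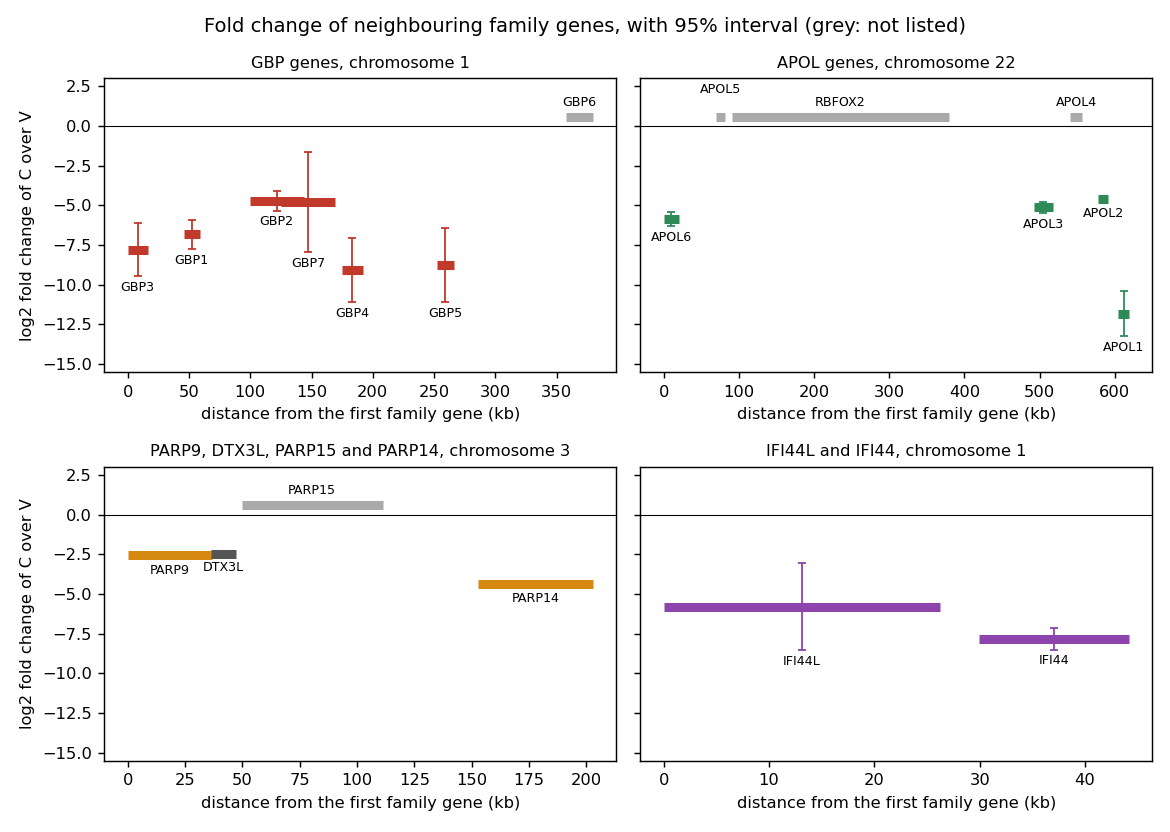
Log2 fold change of C over V along 4 runs of neighbouring family genes, against the distance in kb from the first family gene. Coloured bars span called family genes, the dark bar is DTX3L, vertical lines are 95% intervals, and grey bars above 0 mark genes that were not listed. GBP6, APOL4, APOL5, RBFOX2 and PARP15 are the genes not listed in these runs.

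The IFI symbols cover several unrelated genes named for their induction by interferon. All 7 listed genes were higher in V, from -7.81 to -3.0 on the log2 scale. IFI44, a cytoplasmic antiviral protein, was derived at 5.29 normalised counts in C and 1185 in V, and was listed at -7.81 ± 0.35 in the authors' deposited table (adjusted p = 2.81e-109), a 224-fold difference with a 95% interval of 140 to 359. Its neighbour and relative IFI44L reached only 9.11 normalised counts in V, with -5.78 ± 1.39 (adjusted p = 0.000123) in the authors' deposited table. The 95% intervals of IFI44 (-8.49 to -7.12) and IFI44L (-8.50 to -3.06) overlapped, so their fold changes were not separated, whereas their V levels per kb of annotated exon were 582 and 0.890. The exon lengths used, 2038 and 10240 bases, merge the exons of all annotated transcripts and add to that gap.

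IFI6 and IFI27 belong to 1 group of small hydrophobic proteins of internal membranes. IFI6 was derived at 49 in C and 644 in V (-3.72 ± 0.18, adjusted p = 2.42e-93 in the authors' deposited table), and IFI27 at 5.47 in C and 73.0 in V (-3.74 ± 0.40, adjusted p = 2.85e-19 in the authors' deposited table). The 2 fold changes, 13.1 and 13.4, had overlapping 95% intervals. Per kb of exon the V levels were 744 and 17.6, at annotated exon lengths of 865 and 4147 bases. The gap per kb is thus wider than the gap in normalised counts, because the lengths differ. IFI27L2, which adjoins IFI27 on chromosome 14, had a listed mean of 3.99 and -3.29 ± 1.22 (adjusted p = 0.0177) in the authors' deposited table. IFI27L1, on the other side of IFI27, was not listed.

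IFI35, a cytoplasmic protein that is also released as a danger signal, was derived at 21.9 in C and 175 in V (-3.0 ± 0.23, adjusted p = 1.1e-38 in the authors' deposited table). IFI16, a nuclear DNA sensor, was low on both sides, at 0.338 in C and 28.0 in V (-6.37 ± 1.23, adjusted p = 1.15e-06 in the authors' deposited table). IFI30, a lysosomal thiol reductase of antigen processing, was not listed in the table used here.

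PARP enzymes attach ADP-ribose to proteins, and the 3 listed members are among those tied to interferon. PARP14, which carries several macrodomains, was derived at 201 normalised counts in C and 4226 in V. Its listed log2 fold change of -4.39 ± 0.08, with a p and an adjusted p of 0 in the authors' deposited table, is a 21.0-fold difference (95% interval 18.9 to 23.4), and its Wald statistic ranked 4 among 6018 genes. PARP9, a macrodomain protein with little activity of its own, was at 169 in C and 1000 in V (-2.56 ± 0.11, adjusted p = 6.39e-112 in the authors' deposited table). PARP12, a zinc-finger member that binds RNA, was at 141 in C and 421 in V (-1.58 ± 0.12, adjusted p = 1.1e-38 in the authors' deposited table). In C the 3 genes lay between 141 and 201 normalised counts, while the V levels spread from 421 to 4226, and the 3 95% intervals did not overlap.

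PARP9 works with the ubiquitin ligase DTX3L, and the 2 genes share exon bases head to head, 217 bases on opposite strands. DTX3L was listed at -2.46 ± 0.09 (adjusted p = 5.64e-160) in the authors' deposited table, inside the 95% interval of PARP9 (-2.78 to -2.34). Since the protocol names both a stranded and an unspecified kit and the counting is not given, reads from the shared bases cannot be assigned, though these are 2.43% of the exon bases of PARP9. PARP15, which lies between DTX3L and PARP14 on chromosome 3, was not listed, and neither were PARP2 and PARP3, which act at DNA breaks, or PARP4, PARP6, PARP8, PARP10, PARP11 and PARP16.

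Other ADP-ribosylation genes, taken from a fixed list of 6 partners and relatives, had 4 called members. ZC3HAV1, the zinc-finger antiviral protein also known as PARP13, was listed at -3.83 ± 0.05 and TIPARP at -2.58 ± 0.15 (adjusted p = 4.42e-61) in the authors' deposited table. ZC3HAV1 stood at a derived 1076 normalised counts in C and 15290 in V. PARP1, the main DNA-break enzyme, was on the other side at 1.33 ± 0.06 (adjusted p = 1.6e-101) in the authors' deposited table. None of the 6 ADP-ribose hydrolases and readers searched, PARG among them, was listed.

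TRIM proteins pair a RING ubiquitin ligase domain with B-boxes and a coiled coil, and most differ in the domain that follows. Of the 12 listed genes, 7 were called higher in V, 4 were called higher in C and TRIM61 was not called. Those higher in V fell into a moderate and an extreme set with nothing between. TRIM26, TRIM21, TRIM38, TRIM56 and TRIM47 were listed between -1.85 and -1.30, and TRIM22 and TRIM29 at -7.73 and -9.63, in the authors' deposited table.

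The moderate set consisted of genes that were also well expressed in C. TRIM26, which lies in the MHC region and acts on antiviral signalling, was derived at 322 normalised counts in C and 1162 in V, and was listed at -1.85 ± 0.09 in the authors' deposited table (adjusted p = 2.74e-98), a 3.61-fold difference with a 95% interval of 3.21 to 4.06. TRIM56, a cofactor of DNA and RNA sensing, was at 402 in C and 1140 in V (-1.50 ± 0.09, adjusted p = 8.38e-58 in the authors' deposited table). TRIM38, which tunes toll-like receptor and DNA-sensing signals, was at 121 in C and 409 in V (-1.75 ± 0.11, adjusted p = 6.11e-51 in the authors' deposited table).

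TRIM21, the cytosolic receptor for antibody-coated particles, was at 63.6 in C and 221 in V (-1.80 ± 0.18, adjusted p = 1.92e-21 in the authors' deposited table). TRIM47 was at 113 in C and 278 in V (-1.30 ± 0.15, adjusted p = 1.43e-17 in the authors' deposited table). For TRIM47, 51.5% of the annotated exon bases are also covered by the antisense gene AC087289.5, which was listed on the same side at -2.40 ± 0.83 with a mean of 9.03 in the authors' deposited table. Reads of these 2 genes cannot be told apart without strand. The 95% intervals of the 5 moderate genes all lay between -2.16 and -1.01. Every GBP, APOL and IFI estimate was farther from 0, at -3.0 or below, but the 95% intervals of GBP7 (-7.93 to -1.67) and IFI27L2 (-5.67 to -0.90) reached into that range.

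The extreme TRIM genes were those with almost nothing in C. TRIM22, a nuclear antiviral ligase, was derived at 0.591 in C and 126 in V (-7.73 ± 1.04, adjusted p = 7.16e-13 in the authors' deposited table). TRIM29 was derived at 0.164 in C and 130 in V (-9.63 ± 1.19, adjusted p = 5.95e-15 in the authors' deposited table). TRIM29 lacks a RING and is known from basal and squamous epithelium. Both had derived C levels under 1, which leaves the size of their fold changes poorly determined.

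The TRIM genes higher in C were low in level apart from TRIM7. TRIM7, a ligase first found through glycogenin, was derived at 90.2 in C and 30.7 in V (1.56 ± 0.29, adjusted p = 6.37e-07 in the authors' deposited table). TRIM54, a muscle ligase of the sarcomere, was derived at 7.89 in C and 0.807 in V (3.29 ± 0.90, adjusted p = 0.000934 in the authors' deposited table). TRIM48 and TRIM49C, of a primate gene group with near-identical copies among which short reads divide uncertainly, were listed at 2.13 ± 0.66 (adjusted p = 0.00381) and 2.45 ± 0.88 (adjusted p = 0.0142) in the authors' deposited table, with means of 6.18 and 4.43.

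TRIM61 had a mean of 0.761 and an adjusted p of 0.101 in the authors' deposited table. Among called protein-coding genes with a mean under 10, 25.5% were higher in C, and 3 of the 6 called members at that level were. All 17 called members with a mean of at least 100 were higher in V, while 35.7% of called protein-coding genes with means from 100 to 1000 and 43.5% of those with means of 1000 or more were higher in C.

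**Figure D4:**
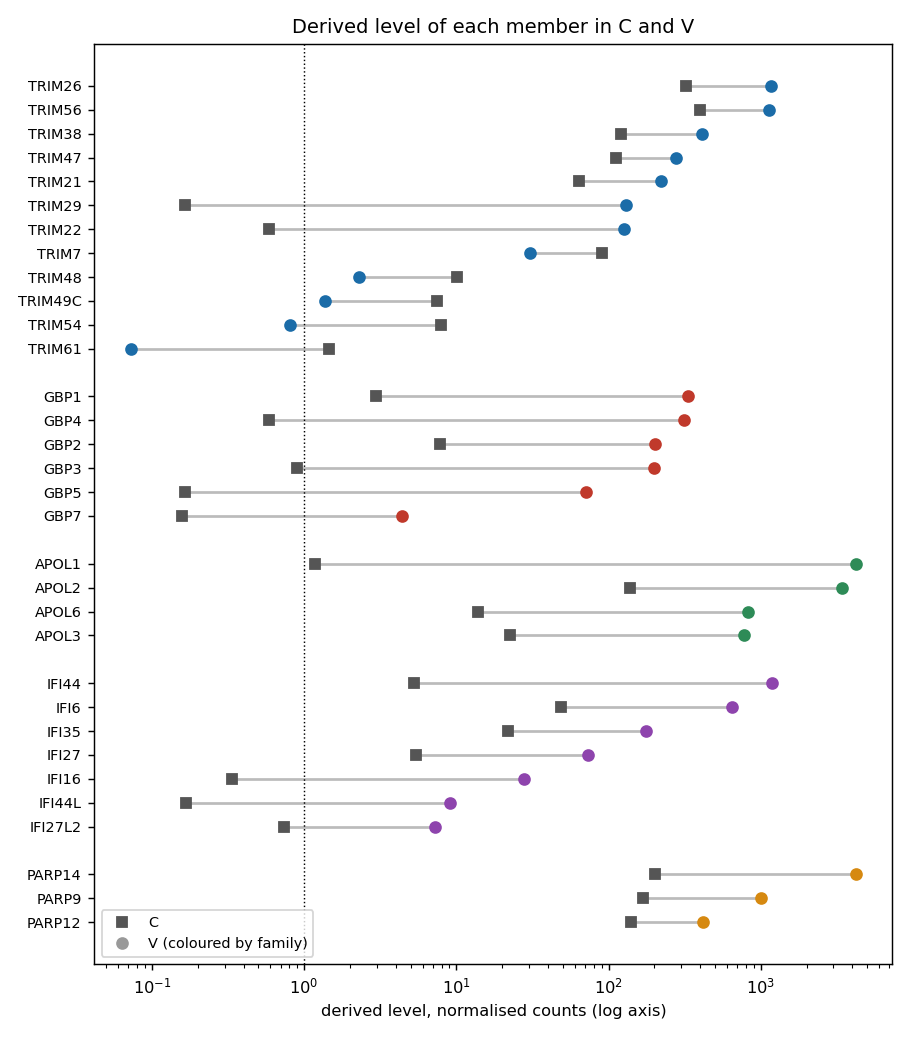
Derived level of each member in C (grey squares) and V (coloured circles) in normalised counts on a log axis, ordered within each family by the V level. The dotted line marks 1 normalised count, below which 10 called members fall on their lower side. PARP and moderate TRIM genes have C levels above 60, and most GBP genes have C levels below 3.

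TRIM genes were called across more than 1 structural class. Of 36 genes with a PRY-SPRY domain, the class that holds most known antiviral TRIM proteins, 7 were called, 5 higher in V (TRIM21, TRIM22, TRIM26, TRIM38 and TRIM47) and 2 higher in C (TRIM7 and TRIM48). TRIM49C, called higher in C, was in none of the class lists and is not in these counts. None of the 4 genes with a PHD finger and bromodomain and none of the 4 with NHL repeats was listed. Of 8 genes with a COS box, TRIM54 was called. For comparison, 16.2% of all TRIM genes and 14.8% of all annotated protein-coding genes were listed. Counts in classes this small do not set any class apart from those shares. TRIM5, TRIM6 and TRIM34, the neighbours of TRIM22 on chromosome 11, were not listed, and neither was TRIM25, a ligase of RNA sensing. TRIM26 was likewise alone among the 6 TRIM genes within 241 kb on chromosome 6. Of 8 relatives without a TRIM symbol, 5 were not listed, and the authors' deposited table placed the other 3, PML (-1.40 ± 0.16), MID1 (-3.25 ± 0.30) and MEFV (-3.49 ± 1.30), on the V side.

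Levels of different members were compared per kb of annotated exon, with the exons of all annotated transcripts of a gene merged. The merged length can exceed that of the transcripts present, and the order of genes depends on it. Family genes that were not listed have no level, so the ranking holds among the listed members only. In V the highest of these were APOL1 at 1205 normalised counts per kb, APOL2 at 975, IFI6 at 744, IFI44 at 582 and PARP14 at 403. The highest listed TRIM gene was TRIM26 at 266 and the highest listed GBP gene was GBP1 at 66.9. In C the order differed, with TRIM26 at 73.6 per kb, IFI6 at 56.6 and APOL2 at 39.7, while APOL1 stood at 0.335. The highest listed GBP gene thus had a lower V level per kb than the highest listed gene of each other family. The GBP median fold change was nevertheless the farthest from 0. That place of the GBP median rests largely on genes with a derived C level under 1. With a derived lower level of at least 1, the median log2 fold change was -5.76 over 2 GBP genes and -5.50 over 4 APOL genes.

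**Figure D5:**
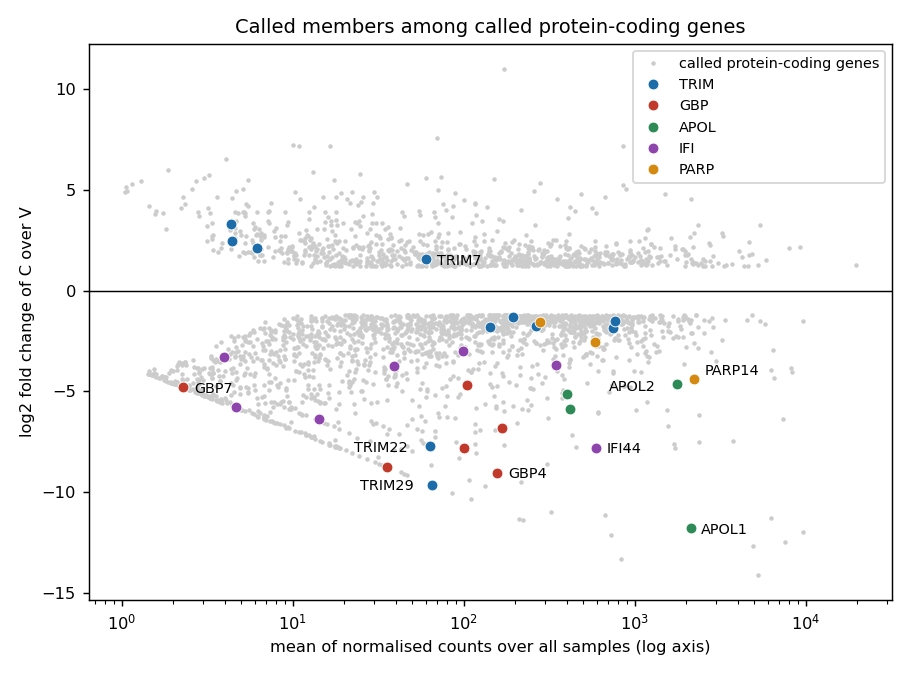
Log2 fold change of C over V against the listed mean normalised count (log axis) for called protein-coding genes (grey) and called members (coloured by family), as listed in the authors' deposited table. APOL1, APOL2 and PARP14 combine a high mean with a fold change far below 0. GBP7 and the unlabelled GBP5 lie along the straight lower edge of the grey points, where derived C levels are near their lowest value.

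Genes of the interferon pathway itself were on the V side where called. Over all annotated protein-coding genes 14.8% were listed, and 65.9% of the called ones were higher in V. Of 13 ligands and receptors, 5 were called, all higher in V: the ligands IFNL1 (-10.03 ± 1.19), IFNB1 (-9.15 ± 1.20), IFNL2 (-8.23 ± 1.21) and IFNL3, and the receptor chain IFNGR1 (-1.50 ± 0.15) in the authors' deposited table. All 4 ligands had derived C levels of 0.163, near the lowest found for called genes higher in V. The sizes of their fold changes therefore follow their derived V levels, 37 to 171, and are poorly determined. Of 12 JAK-STAT and IRF genes, 4 were called higher in V: JAK2 (-3.29 ± 0.12), IRF1 (-5.09 ± 0.19), IRF7 (-1.67 ± 0.16) and IRF2 (-1.43 ± 0.17) in the authors' deposited table. STAT2 and IRF9 were among those not listed. The feedback inhibitors SOCS1, SOCS3 and USP18 were called higher in V, 3 of 6 searched. A list of 11 GTPase and DNA-sensor relatives, which also holds NLRC5, the activator of MHC class I genes, had 6 called, 5 of them higher in V. NLRC5 was at -5.32 ± 0.22, and GVINP1, the called gene higher in C, at 1.51 ± 0.39 in the authors' deposited table. Of 9 apolipoproteins outside APOL, 3 were called: CLU (-1.45 ± 0.09) and APOD (-1.41 ± 0.54) higher in V and, on the C side, APOC1 (3.20 ± 1.01) in the authors' deposited table.

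Several members are abundant in leukocytes, so markers of other cells were set beside them. Of 14 leukocyte markers, 6 were listed and 5 called, all higher in V, with a summed derived level of 1.79 normalised counts in C and 92.5 in V. The called leukocyte markers with the smallest p were PTPRC (-7.77 ± 1.27), LYZ (-6.11 ± 1.25), ITGAM (-4.42 ± 0.95) and FCGR3A (-6.14 ± 1.34) in the authors' deposited table. Every called leukocyte marker had a derived C level under 1. CD3D, CD3E, CD4, CD8A, MS4A1, NKG7 and CSF1R were among the markers not listed. Of 6 endothelial markers 2 were called higher in V, PECAM1 and ESAM (summed levels 4.99 in C and 45.7 in V). Of 6 fibroblast markers 2 were called, 1 on each side: COL1A1 higher in V and PDGFRB higher in C. The called members summed to 1920 normalised counts in C and 21631 in V, of which APOL1 gave 19.6%, PARP14 19.5% and APOL2 15.7%. The part of other cells in the result was not tested. Of the 10 luminal prostate markers, KLK3 and KLK2 were called higher in C, KRT8 higher in V and the rest were not listed, with KLK3 derived at 15170 in C and 3363 in V.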

How the data were processed

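RNA from 3 libraries of each line (1 µg of total RNA, 50 bp single-end reads) was measured, per the labels' protocols, and 1 table of the authors' own comparison was used. The authors deposited, as a signal, each gene's mean normalised count across samples from DESeq2, per the file headers. The deposited log2 fold change is a maximum likelihood estimate of C over V, and the deposited standard error and Wald statistic were treated as score values. The p-value and adjusted p-value are the authors', from a Wald test and Benjamini-Hochberg adjustment, per the file headers. FastQC and Cufflinks 2.2.1 appear in the submitters' processing notes without a role, while aligner, counter and genome build were not given in the sources used here. Depth per library is unknown.

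From these values, a level per condition was solved from the listed average and ratio, and 95% intervals as the estimate ± 1.96 standard errors (Python 3.11.15, pandas 2.3.3). No test across libraries could be run. An adjusted p of 0 beside a p above 0, found for 4 genes and no member, was read as not given. Gene types, positions and exon lengths came from GENCODE release 29, which holds 5935 of the 6018 identifiers. For the exon length, the exons of all annotated transcripts of a gene were merged. Start windows came from RefSeq. The derivation, membership rule and motif search were tested on simulated data. All called members were named, with up to 4 called genes of each other list. The members, lists and classes were chosen with earlier results of these data known. Alternatives changed the thresholds on p, fold, mean and derived level, the interval and the membership. Pseudogenes and PARP1 were left out by the membership rule.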

Additional observations from a re-analysis of the deposited data

How the results depend on the processing

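No paired analysis was possible because the table has no column per library, and for the same reason no library could be left out. A mean of at least 100 reduced the called members from 31 to 17 and those higher in V from 27 to 17, with 0 higher in C. It also left 3 GBP and 2 IFI genes, with an IFI median of -5.76. The count higher in C, 4 as reported, was 2 with an adjusted p under 0.001, 1 with the 95% interval beyond an absolute log2 of 1, and 7 with pseudogenes and PARP1 included, an alternative chosen after seeing the data. The median over all called members, -4.39 as reported, was -4.96 with a log2 fold change of 2 or more in size, -3.0 with a derived lower level of at least 1, and -3.73 with pseudogenes and PARP1. A derived lower level of at least 1 left 2 GBP and 4 IFI genes and gave a GBP median of -5.76. The IFI median was -4.76 with an adjusted p under 0.001 and also with the 95% interval beyond an absolute log2 of 1. The PARP median was -3.48 with a log2 fold change of 2 or more in size and -2.07 with pseudogenes and PARP1. With a log2 fold change of 2 or more in size, 2 TRIM genes higher in V were left and the TRIM median turned from -1.50 to 2.13, because the moderate genes dropped out. The other 91 of 112 recomputed values moved by at most 1.5 times, for counts, or by less than the median standard error of the genes summarised, for medians. Of these 91, 14 came from the limit to protein-coding single genes. Another 14 came from reading an adjusted p of 0 beside a p above 0 as called. Neither alternative could change a value, because all members are protein-coding and no member had such an adjusted p. Depth per library is unknown, and the fold sizes of the 10 called members with a derived level under 1 on their lower side are poorly determined.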

Other observations

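The derived C levels had a lower edge. Of the 608 called genes higher in V with a derived C level under 1 normalised count, 203 lay between 0.15 and 0.17 and 0 lay below. Their listed log2 fold changes ran from -13.44 to -4.13, with means from 1.43 to 904 and standard errors from 1.18 to 1.83 in the authors' deposited table. GBP5, GBP7, IFI44L and TRIM29 were among the 203, so their listed fold changes follow their V levels.

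Olfactory receptor genes beside TRIM22 stood on the other side. Of the 10 other protein-coding genes that overlap the span of TRIM6, TRIM34, TRIM5 and TRIM22 on chromosome 11, 4 were called, all higher in C at means of 4.91 to 6.41: OR52N1 (3.07 ± 0.75), OR52E8 (2.95 ± 0.94), OR52E6 (2.77 ± 0.81) and OR52N5 (2.70 ± 0.68) in the authors' deposited table. These genes were chosen after their values were seen. All 4 lie on the minus strand within the annotated span of TRIM5, which is on the same strand and was not listed. Whether their reads came from TRIM5 transcripts was not tested. Over all annotated protein-coding genes 14.8% were listed.

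The family pseudogenes that the membership rule leaves out lay near their parents where a parent was listed. GBP1P1 was at -7.88 ± 1.22 beside GBP1 at -6.82 ± 0.47, and PARP1P1 at 1.53 ± 0.16 beside PARP1 at 1.33 ± 0.06, in the authors' deposited table. Short reads may divide uncertainly between such copies.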
